A study of Mus musculus with 16 samples.

Results

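H2AK119ub1 peaks of PCGF5-depleted mouse embryonic stem cells (ES) were compared with those of neural progenitor cells (NPC) made from PCGF5-depleted ES. All peaks of both lists were members, 7170 in ES and 3845 in NPC, which gave 11015 of the 86279 peaks in the 10 lists of the series. The series mapped H2AK119ub1, H3K27me3 and Flag-tagged PCGF5 by ChIP-seq in ES and NPC, with and without depletion of PCGF5, and asked how PCGF5 shapes these marks during neural differentiation. Both cell populations came from 46C ES, which carry GFP at Sox1, and the labels give the genotype as shPCGF5, a short hairpin RNA against Pcgf5. In the study's methods the hairpin was delivered by a pLKO.1 lentivirus and stable cells were picked as clusters after puromycin, so these libraries may represent a single line. ES were grown on mitomycin C-inactivated mouse embryonic fibroblasts with LIF and inhibitors, and NPC were taken at day 6 of differentiation in suspension. The control cells, used below only for side by side values, were wild type ES and NPC of the same protocol. Each group was 1 library, so no value below has a replicate error and no difference between stages was tested.

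An ES peak was called kept where it shared at least 1 bp with an NPC peak and lost where it did not, and an NPC peak with no ES peak under it was called gained. A gene was called marked where the centre of a peak lay within 2500 bp of one of its protein-coding start sites (mm9, GENCODE M1). The lists give no read totals, so the depth is unknown. The intervals given are 95% Wilson intervals over peaks or genes and cover counting error only.

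H2AK119ub1 is a single ubiquitin on a lysine near the end of histone H2A, placed by the RING1A and RING1B ligases of Polycomb repressive complex 1 (PRC1). PCGF5 is one of the PCGF subunits that define the variants of PRC1, and its complex belongs to the forms that lack a CBX reader of H3K27me3. In ES the mark lies mainly over CpG-rich start sites of developmental regulators, where PRC2 also places H3K27me3. In neural differentiation, genes of the neural programme are known to leave Polycomb repression while genes of other lineages keep it.

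Stretches of 300 bases centred on 6 peaks show what kinds of sequence were kept, lost and gained, with each CpG in capitals and all other bases in lower case, on the plus strand of NCBIM37 (mm9). The first 3 were chosen after their values were seen, as transcription factor genes, and each centre lay in a promoter window. The peak of Lmx1b, a LIM homeobox factor of midbrain and limb patterning, was kept (chr2:33495380-33495679, inside the gene but outside its coding and untranslated exons at the centre, 501 bp from the nearest start site). That of Neurog3, a proneural bHLH factor, was lost (chr10:61594741-61595040, 947 bp from the nearest start site, within the span of 2010107G23Rik). That of Hoxc12, a posterior Hox factor, was gained (chr15:102765647-102765946, in no annotated gene, 1391 bp from the nearest start site).
Lmx1b, kept: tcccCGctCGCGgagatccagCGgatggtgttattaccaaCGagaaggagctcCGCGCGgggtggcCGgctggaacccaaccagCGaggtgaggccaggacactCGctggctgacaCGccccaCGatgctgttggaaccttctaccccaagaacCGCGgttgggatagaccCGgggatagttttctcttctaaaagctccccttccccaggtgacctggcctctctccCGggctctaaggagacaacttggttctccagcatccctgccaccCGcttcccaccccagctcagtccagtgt
Neurog3, lost: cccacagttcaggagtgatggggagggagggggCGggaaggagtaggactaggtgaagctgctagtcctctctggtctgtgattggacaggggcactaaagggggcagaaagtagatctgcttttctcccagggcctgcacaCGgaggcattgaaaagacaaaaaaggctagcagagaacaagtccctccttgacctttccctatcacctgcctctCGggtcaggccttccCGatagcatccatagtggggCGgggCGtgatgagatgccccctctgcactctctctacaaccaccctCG
Hoxc12, gained: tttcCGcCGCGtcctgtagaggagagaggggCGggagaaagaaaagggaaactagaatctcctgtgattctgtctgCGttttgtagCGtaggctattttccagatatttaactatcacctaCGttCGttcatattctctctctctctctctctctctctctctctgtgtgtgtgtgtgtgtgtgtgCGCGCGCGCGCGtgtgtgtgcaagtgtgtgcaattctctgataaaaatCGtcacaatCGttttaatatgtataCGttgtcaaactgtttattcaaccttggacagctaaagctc

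The other 3 were the strongest peaks by the naming rule whose window held no untranslated region. They lay at predicted genes, at chr10:57696373-57696672 (Gm10807, kept), chr2:98505132-98505431 (Gm10800, gained) and, outside promoters and nearest to Gm11168, chr9:3006820-3007119 (gained).
Gm10807, kept: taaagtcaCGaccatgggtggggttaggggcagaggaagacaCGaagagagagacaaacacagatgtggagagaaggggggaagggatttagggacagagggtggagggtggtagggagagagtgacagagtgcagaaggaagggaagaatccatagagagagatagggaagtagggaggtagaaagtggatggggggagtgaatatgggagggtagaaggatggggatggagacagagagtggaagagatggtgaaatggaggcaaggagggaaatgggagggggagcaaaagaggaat
Gm10800, gained: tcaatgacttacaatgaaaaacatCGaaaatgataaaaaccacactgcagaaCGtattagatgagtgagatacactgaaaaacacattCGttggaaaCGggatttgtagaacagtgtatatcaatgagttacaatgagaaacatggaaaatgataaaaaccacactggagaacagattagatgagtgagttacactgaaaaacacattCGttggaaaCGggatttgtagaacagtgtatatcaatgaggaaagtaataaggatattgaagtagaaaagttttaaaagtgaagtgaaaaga
near Gm11168, gained: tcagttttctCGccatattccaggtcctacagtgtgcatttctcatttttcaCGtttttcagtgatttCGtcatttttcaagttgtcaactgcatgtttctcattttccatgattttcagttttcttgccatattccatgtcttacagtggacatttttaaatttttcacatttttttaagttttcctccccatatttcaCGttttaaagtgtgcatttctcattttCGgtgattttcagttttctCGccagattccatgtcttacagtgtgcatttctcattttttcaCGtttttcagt

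The Lmx1b and Hoxc12 windows held 18 and 17 CpG, and the Neurog3 window held 7. Part of the CpG at Hoxc12 lay in an unbroken run of CG between runs of repeated gt and tg. Of the bases, 45.3% were G or C at Hoxc12, 61.7% at Lmx1b and 57% at Neurog3. The windows at the predicted genes held 2 (Gm10807), 6 (Gm10800) and 7 (near Gm11168). At the start of chromosome 9, where the last of these lies, 91.2% of the 36-base words of the region occurred more than once within it. The Gm10800 window also held a long run of bases more than once.

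Some peaks stood apart from the rest and bear on the results that follow. There were 6 regions, set after the data were seen as runs of at least 20 peaks with no start site, that held 283 ES peaks, of which 226 were kept (79.9%). These 226 were 16.7% of all kept ES peaks. Of the 100 strongest lost ES peaks, 16 lay with at least 90% of their length in annotated exons, against 1 of the 100 strongest kept ES peaks, 3 of the kept NPC peaks and 7 of the gained peaks. The wild type ES list had 2 such peaks among its 100 strongest lost. The H3K27me3 list of the depleted ES had 17 among its 100 strongest peaks without an NPC peak. The main shares were recomputed without either group of peaks.

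The marks at cell type genes were read as a check on the labels, with the limit that a repressive mark does not measure expression. The pluripotency genes Pou5f1, Nanog, Klf4 and Zfp42 had no H2AK119ub1 peak within 2500 bp of a start site at either stage. Esrrb, another pluripotency factor, had none in ES and 1 in NPC. Of the neural progenitor genes, Pax6 had 15 promoter peaks in ES and 8 in NPC, and Nes, which encodes the filament protein NESTIN, had 1 and 2. Fibroblasts were present in the ES cultures as feeders, and of the fibroblast genes Col1a1, Col1a2 and Twist1 had no peak, Thy1 had 0 in ES and 1 in NPC, and Prrx1 had 1 at each stage. Of all 16 fibroblast genes, 2 were marked at both stages, none in ES alone and 2 in NPC alone, and the part of feeder cells in the results was not tested. Pcgf5 itself had no peak at either stage, which does not check the depletion.

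Most H2AK119ub1 peaks of PCGF5-depleted ES were absent from the NPC list, and most NPC peaks were absent from the ES list. Of the 7170 ES peaks, 1356 were kept (18.9%, interval 18.02 to 19.8%) and 5814 were lost. Of the 3845 NPC peaks, 1425 lay over an ES peak and 2420 were gained (62.9%, interval 61.4 to 64.5%). The peaks covered 2.09 Mb in ES and 1.12 Mb in NPC and shared 377 kb, which was 18.03% of the ES bases and 33.6% of the NPC bases. In wild type cells, 1425 of 8672 ES peaks were kept (16.4%) and 23.9% of the 5754 NPC peaks lay over an ES peak, and the difference from the depleted cells was not tested. Of the H3K27me3 peaks of the depleted ES, 50.0% overlapped an H3K27me3 peak in NPC, but this share is not comparable. The NPC list of H3K27me3 was longer, with 14759 peaks over 8.18 Mb against 3845 over 1.12 Mb for H2AK119ub1. Its ES peaks were also wider, with medians of 298 and 222 bp, so an overlap of 1 bp was more likely. Without the dense regions, chromosomes M and Y and the start of chromosome 9, 16.1% of the ES H2AK119ub1 peaks were kept, and without the exon peaks 17.7%.

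Kept peaks were wider and stronger within their own list. A wider peak had more chance to share 1 bp, so the difference in width follows in part from the rule. The median width was 347 bp for kept ES peaks and 207 bp for lost ones, and 276 bp for NPC peaks over an ES peak against 192 bp for gained ones. The score of a peak was 10 times its −log10 p, and its rank within the list could be compared although the fold over background could not. The median score percentile was 69.1 for kept and 46.0 for lost ES peaks, and 60.4 for kept and 45.2 for gained NPC peaks. With each list split by score into 10 parts of equal size, 9.76% of the ES peaks of the weakest part were kept and 42.4% of those of the strongest. The same order held in NPC, where 25% of the weakest and 58.2% of the strongest part lay over an ES peak. Most of the strongest ES peaks were thus still lost. The strongest part of the ES list was also wider than the weakest, with median widths of 312 and 205 bp, so width and score were not separated. In 1106 pairs of 1 ES and 1 NPC peak, the ES peak was the wider in 665 and the NPC peak in 438, with medians of 312.5 and 260 bp.

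**Figure D1:**
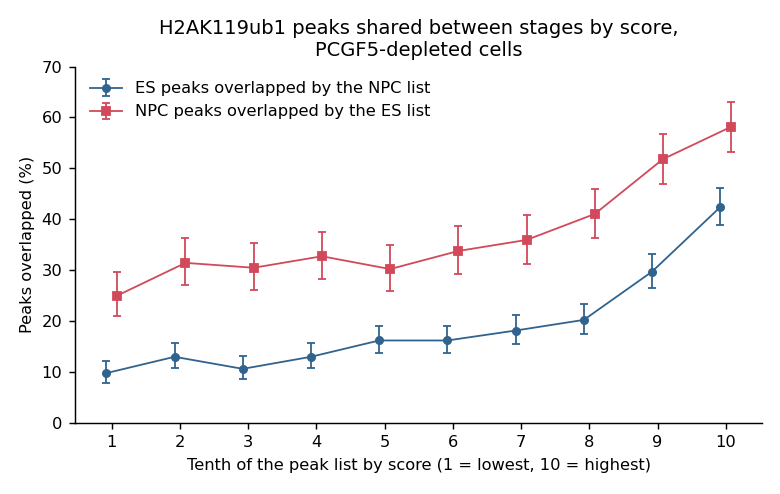
Share of peaks that overlapped a peak of the other stage (y axis, percent) by decile of the score within each list (x axis, weakest to strongest), for ES and NPC peaks of PCGF5-depleted cells. Points are shares and bars are 95% Wilson intervals. The ES share runs from 9.76% in the weakest to 42.4% in the strongest decile, and the NPC share from 25% to 58.2%.

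Distances to the nearest peak of the other stage were taken to lists of unequal length, 3845 peaks for lost and 7170 for gained peaks, so the values of the classes are not comparable. Of the 5814 lost peaks, 916 (15.8%) had an NPC peak within 1000 bp, while for 2761 (47.5%) the nearest was over 100000 bp away. The median distance was 85370.5 bp. Of the 2420 gained peaks, 713 (29.5%) had an ES peak within 1000 bp and 663 (27.4%) had none within 100000 bp, with a median distance of 7229 bp. Both classes thus included peaks beside the mark of the other stage and peaks far from it.

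Kept and gained peaks lay at promoters more often than lost peaks. A promoter window held 43.0% of kept ES peaks, 28.4% of lost peaks and 41.2% of gained peaks. Lost peaks were more often in introns (25.5%, against 20.1% of kept and 17.3% of gained) and between genes (41.7%, against 32.3% and 35.7%). The order of kept and gained peaks was not stable, since with the higher-scoring 50% of each list 34.1% of kept and 42.8% of gained peaks were at promoters. Without the dense and repeated regions 51.0% of kept peaks were at promoters, and without the exon peaks the shares were 37.6% (kept), 26.7% (lost) and 35.4% (gained).

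H3K27me3, the mark of PRC2, covered almost all kept peaks in NPC. In PCGF5-depleted NPC, 90.2% of kept ES peaks overlapped an H3K27me3 peak, against 65.3% of gained and 35.3% of lost peaks. In PCGF5-depleted ES the shares were lower, with 57.2% of kept, 26.0% of gained and 20.7% of lost peaks. Of the kept peaks 8.04% had H3K27me3 at neither stage, and of the lost peaks 58.4%. At promoters the NPC shares were 96.2% for kept, 87.7% for gained and 61.2% for lost peaks, and of the gained peaks outside promoters 49.7% had H3K27me3. Without the dense and repeated regions the ES share of kept peaks was 49.9%, and without the exon peaks the NPC share of gained peaks was 60.3%. The H3K27me3 lists of these cells held 10234 peaks in ES and 14759 in NPC, so a random place was more likely to be covered in NPC. Kept ES peaks were also wider than lost and gained peaks (medians of 347, 207 and 192 bp). They thus had more chance of an overlap with this or any other list.

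**Figure D2:**
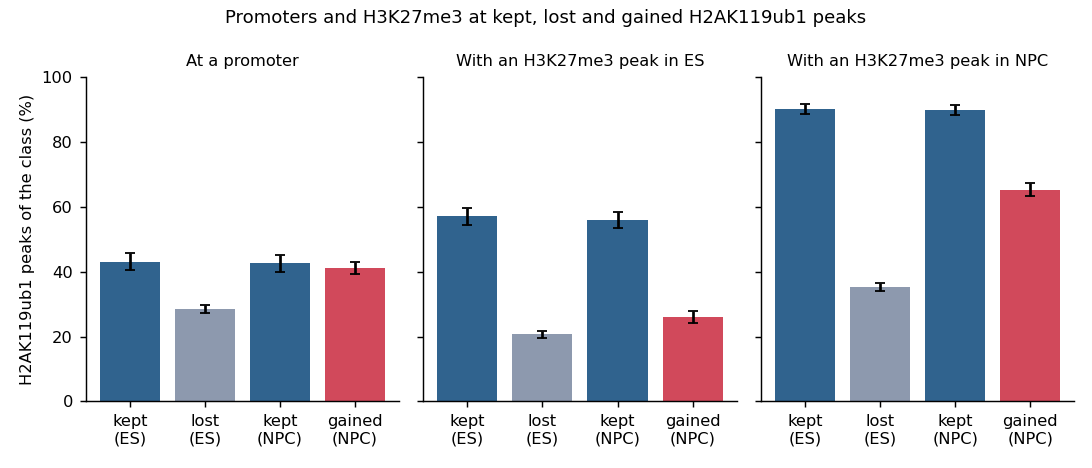
Percent of kept, lost and gained H2AK119ub1 peaks (y axis) that lay at a promoter (left), overlapped an H3K27me3 peak in PCGF5-depleted ES (middle) or in PCGF5-depleted NPC (right), with kept peaks counted in each list. Error bars are 95% Wilson intervals. Kept ES peaks overlapped NPC H3K27me3 in 90.2%, gained peaks in 65.3% and lost peaks in 35.3%.

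Most lost and gained peaks also had no peak called over them in the wild type lists, which does not show that the mark was absent. Neither wild type H2AK119ub1 list had a peak over 67.2% of lost and 58.0% of gained peaks, while this held for 16.6% of kept ES peaks. Flag-PCGF5, mapped in other cells that carry the tagged protein, overlapped few of them. Its NPC list covered 5.97% of kept, 3.35% of lost and 5.45% of gained peaks, and its ES list under 1% of each class.

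Kept peaks were richer in CpG than lost ones. The median number of CpG per 100 bp was 2.8 in windows on kept ES peaks, 1.0 on lost peaks and 2.2 on gained peaks. Windows spread over the genome had a median of 0.6 (n = 25573) and windows on start sites 3.6 (n = 22232). At least 3 CpG per 100 bp were found in 49.9% of kept, 17.8% of lost and 44.5% of gained windows, against 2.12% of genome windows. At promoters the gained peaks had the highest median, 5.6, beside 4 for kept ES and 2 for lost peaks. Outside promoters the medians were 2.2 for kept and 0.8 for both lost and gained. Without the exon peaks the median of all gained windows was 1.4.

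**Figure D3:**
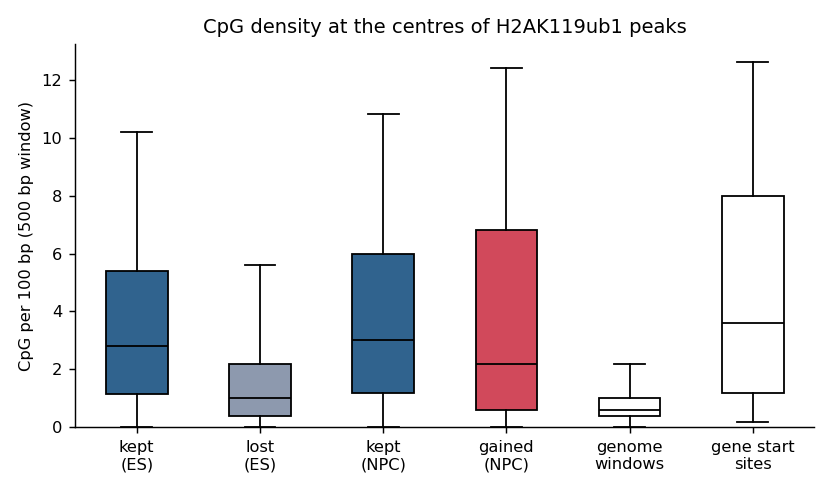
CpG per 100 bp (y axis) in windows of 500 bp on kept, lost and gained H2AK119ub1 peaks, with genome windows and start sites for scale. Boxes span the quartiles, lines mark medians and whiskers end at the 5th and 95th percentiles. The medians are 2.8 for kept ES, 1.0 for lost and 2.2 for gained peaks.

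Peaks of both stages that lay within 10 kb of each other were joined into 5173 regions, to see whether the mark stayed in the same places where single peaks moved. ES peaks lay in 4163 regions, NPC peaks in 1907 and both in 897, which was 21.5% of the ES regions and 47.0% of the NPC regions. Of ES regions with a single peak, 12.8% (419 of 3283) also held an NPC peak. The share was 43.4% (294 of 678) with 2 to 4 ES peaks and 91.1% (184 of 202) with 5 or more. A region counted as holding both with a single NPC peak anywhere in it, so longer regions had more chance to do so.

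The regions with genes that covered most bases in ES were the Hox clusters, which encode the factors that pattern the body axis. All 4 held fewer bases of H2AK119ub1 in PCGF5-depleted NPC than in ES, as did the whole list (2.09 and 1.12 Mb), so the lower values are not particular to the clusters. The Hoxb cluster (chr11:96131816-96215183) held 63 ES peaks, of which 32 were kept, and 52 NPC peaks, and its covered length was 30.4 kb in ES and 14.8 kb in NPC. The Hoxa cluster (chr6:52113306-52224880) held 67 ES peaks, 39 of them kept, and 62 NPC peaks, over 25.5 and 18.9 kb. In both clusters H3K27me3 of the same cells covered more in NPC, as it did over the whole list (3.84 and 8.18 Mb), 13.2 kb in ES and 68.5 kb in NPC at Hoxb, and 12.5 and 80.0 kb at Hoxa. The Hoxd cluster (chr2:74494791-74604083) had 23.1 kb of H2AK119ub1 in ES and 14.1 kb in NPC, and Hoxc (chr15:102762470-102870321) had 17.4 and 11.5 kb. There the H3K27me3 values were 16.8 and 69.7 kb at Hoxd and 9.78 and 77.4 kb at Hoxc. The wild type libraries had more covered bases of H2AK119ub1 in NPC at each of these clusters, for example 14.5 kb in ES and 63.9 kb in NPC at Hoxb. The number of bases called depends on the depth of each library, and its part in these values was not tested.

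Other domains with developmental regulators, Lmx1b, Pax7 and Nkx1-1, also had fewer covered bases in NPC in the depleted cells. They were taken for their coverage in ES, with ranks of 9, 10 and 12 there and 53, 10 and 35 in NPC. Lower values in NPC thus follow in part from the choice. The Lmx1b region (chr2:33419978-33502210) had 15.9 kb in ES and 2.94 kb in NPC, while its H3K27me3 covered 8.49 and 23.9 kb. Around Pax7 (chr4:139374840-139395161), a factor of dorsal neural tube and muscle, H2AK119ub1 covered 13.2 and 7.29 kb. Around Nkx1-1 (chr5:33767351-33813404), an Nkx homeobox factor, it covered 10.4 and 3.49 kb. In wild type cells the Lmx1b region also had fewer bases in NPC, 18.3 kb in ES and 5.66 kb in NPC.

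**Figure D4:**
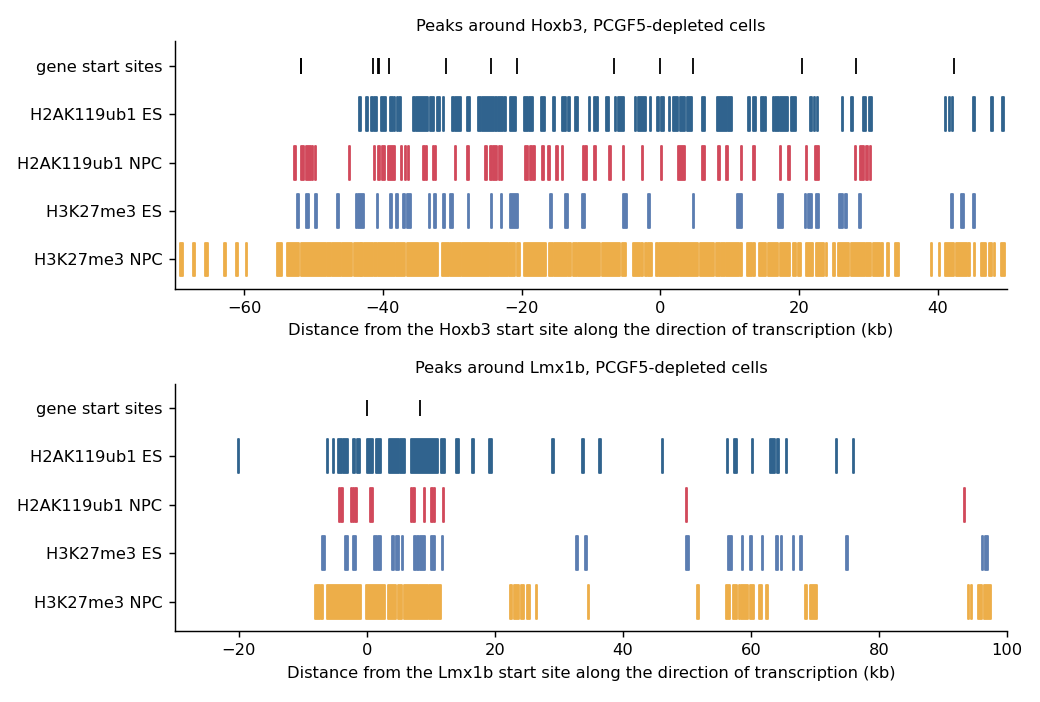
Peaks of H2AK119ub1 and H3K27me3 in PCGF5-depleted ES and NPC around Hoxb3 (upper panel) and Lmx1b (lower panel), each drawn as a block at its distance in kb from the start site on the x axis, with black ticks for start sites. At Lmx1b the H2AK119ub1 peaks of NPC are fewer than those of ES, 2.94 against 15.9 kb in the region, and H3K27me3 fills much of both loci in NPC.

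The densest regions without any start site were made of repeated sequence, with 1 exception. The largest (chr8:126061343-126148053) held 79 ES and 101 NPC peaks over 61.8 and 51.5 kb, and 97.5% of its 36-base words were repeated within it. Another (chr6:114443014-114587398) held 124 and 99 peaks over 44.6 and 26.8 kb, with 92.8% repeated words. A neighbouring pair on the same chromosome (chr6:47601676-47636966 and chr6:47687092-47728282) held 27 and 31 ES peaks and 29 and 28 NPC peaks. A smaller one (chr9:121129329-121148645) held 20 and 16 peaks, with 88.2% repeated words. The exception was on the Y chromosome (chrY:2853834-2897641), with 2 ES and 22 NPC peaks and 0.43% repeated words. These regions carry a large share of the kept peaks on 2 chromosomes. On chromosome 6, 36.6% of ES peaks were kept and on chromosome 8, 34.0%, against 19.4% and 18.9% outside the dense regions. Near the start of chromosome 9 (chr9:2999983-3038301) 22 ES and 43 NPC peaks covered 5.66 and 28.0 kb, and all 22 ES peaks were kept.

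The share kept was larger for genes than for peaks, but the rules differ. A gene needed only an NPC peak centre in its promoter window and no shared bases, so the shares are not comparable. H2AK119ub1 marked 1324 genes in ES (5.96% of the 22232 protein-coding names) and 928 in NPC (4.17%). Both stages marked 542 genes (2.44%), ES alone 782 (3.52%) and NPC alone 386 (1.74%). Of the ES-marked genes 40.9% were thus still marked in NPC, and in wild type cells 550 of 1488 (37.0%). Of the 542 genes, 362 had an ES promoter peak that overlapped an NPC promoter peak, and for 180 the peaks lay at different places in the window. Without the exon peaks both stages marked 438 genes, ES alone 709 and NPC alone 290. The share kept went with the number of ES peaks in the promoter window. It was 23.3% of genes with 1 peak, 55.5% with 2, 77.2% with 3 or 4 and 96.1% with 5 or more. Genes with several start sites had wider windows and so more chance of a peak at each stage, which was not separated.

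Genes marked at both stages nearly always carried H3K27me3 as well. An H3K27me3 peak lay in the promoter window in NPC at 97.6% of the genes marked at both stages, 65.0% of those marked in ES alone and 85.5% of those in NPC alone, against 15.5% of all genes. In ES the shares were 90.8%, 61.3% and 63.2%, against 12.9% of all genes. Neither wild type list marked 6.83% of the genes marked at both stages, 50.6% of those in ES alone and 46.1% of those in NPC alone.

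Developmental transcription factors marked in ES were kept more often than other ES-marked genes. Over 13 lists with 214 genes, 125 were marked at both stages, 21 in ES alone and 15 in NPC alone, so that 85.6% of the ES-marked ones were kept (interval 79.0 to 90.4%). Signalling ligands and related genes kept 55%, with 22 at both stages, 18 in ES alone and 6 in NPC alone. Genes of neuronal function kept 45.7%, with 21, 25 and 29. All other genes kept 34.2%, with 374, 718 and 336. Among genes with a single ES promoter peak, 24 of 36 transcription factors (66.7%) and 167 of 785 other genes (21.3%) were kept. No test was made of these differences, since the lists were drawn up with results of these data known.

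**Figure D5:**
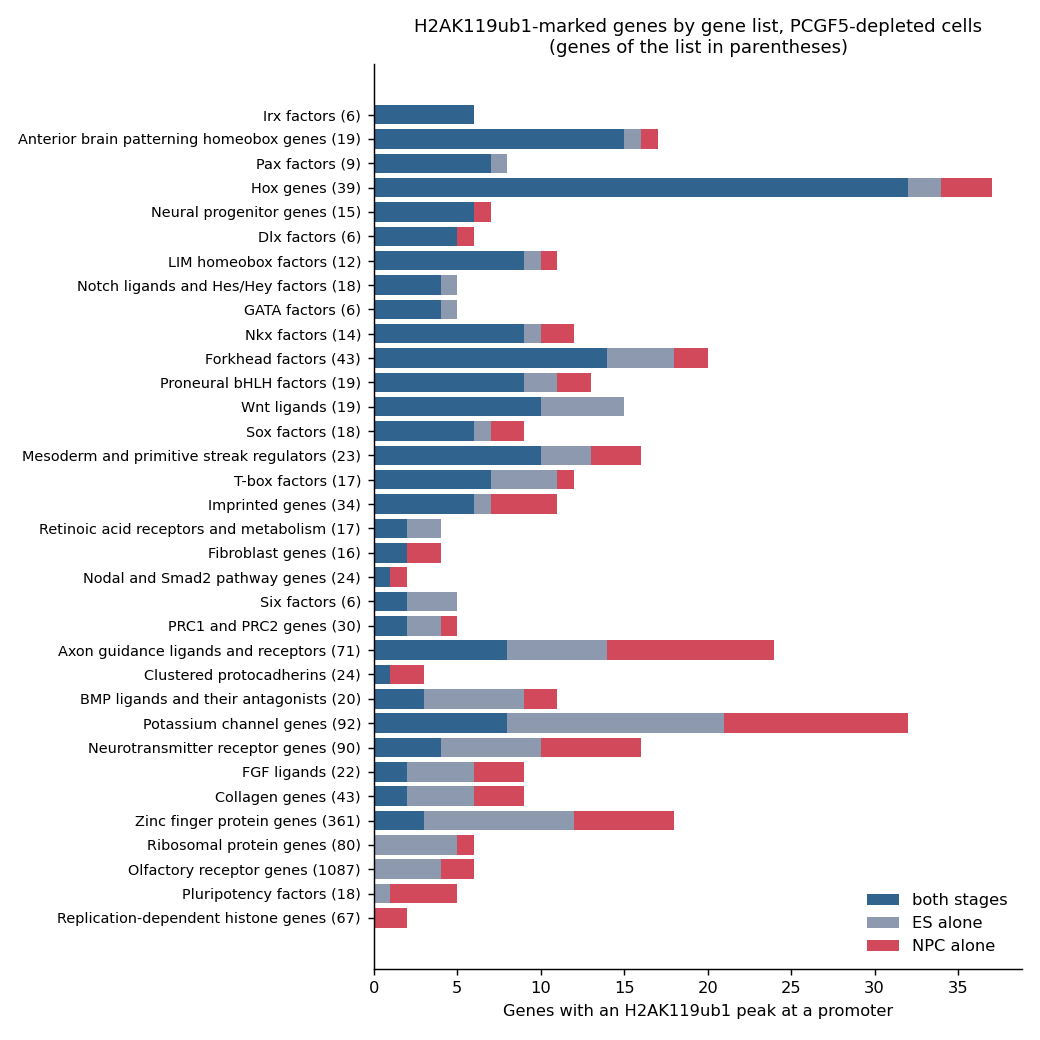
Number of genes of each list (x axis) marked by H2AK119ub1 at both stages, in ES alone or in NPC alone in PCGF5-depleted cells. The Hox list has 32 genes at both stages, 2 in ES alone and 3 in NPC alone.

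Of the 39 Hox genes, 32 were marked at both stages, Hoxb1 and Hoxc11 in ES alone, and Hoxb9, Hoxc12 and Hoxd1 in NPC alone. Hoxd3 had 14 promoter peaks in ES and 18 in NPC. Hoxb3 had 12 and 6, which covered 5171 and 2794 bp. H3K27me3 was present at the promoters of all 39 in NPC and of 36 in ES. Members from the anterior and the posterior end of the clusters were thus marked at both stages.

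Factors that pattern the brain and eye were also mostly kept. Of 19 anterior patterning homeobox genes 15 were marked at both stages, Rax, a factor of the eye field, in ES alone and Dbx2, of the ventral spinal cord, in NPC alone. Of 9 Pax genes 7 were kept, and Pax4, known from pancreatic islets, was lost. Pax6, a master regulator of eye and forebrain, had 6898 bp covered in ES and 2308 bp in NPC. Pax2, of kidney and midbrain, had 7 and 8 peaks over 2963 and 3809 bp. Six3, a forebrain factor, had 8 and 4 peaks over 5607 and 2472 bp. Of the 6 genes of its family 2 were kept, and Six5 and Six6 were marked in ES alone.

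The LIM and Nkx homeobox genes, which specify neurons and other organs, were kept in most cases. LIM genes counted 9 at both stages, with Isl2 in ES alone and Isl1 in NPC alone, both factors of motor neurons. Lhx1 had 8 promoter peaks at each stage, over 4000 bp in ES and 2330 bp in NPC. Lmx1b had 5 and 9 peaks, over 6948 and 2262 bp, so that more and narrower peaks were called in NPC. A single ES peak there (chr2:33484894-33489194) lay over 5 NPC peaks, the most of any in the list. Of 14 Nkx genes 9 were kept, Nkx2-9 was marked in ES alone, and Nkx2-4 and Nkx2-6 in NPC alone. All 6 Irx genes were marked at both stages, and of the 6 Dlx genes, which act in forebrain interneurons, 5 were, with Dlx4 in NPC alone.

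Proneural and progenitor genes were not cleared of the mark in these lists. Of 19 proneural bHLH genes, which start neuronal differentiation, 9 were marked at both stages, Neurog3 and Olig3 in ES alone, and Ascl2 and Olig1 in NPC alone. Of 15 neural progenitor genes in the annotation 6 were marked at both stages, none in ES alone and Cdh2, the neural cadherin, in NPC alone with 1 peak. Pou3f2, a neural POU factor, had 1 peak in ES and 3 in NPC. The wild type lists also kept the mark at these genes, so this is not particular to the depleted cells. There, 9 proneural bHLH genes were marked in ES, 14 in NPC and 9 at both stages. Neural progenitor genes counted 5 in wild type ES, 4 in NPC and 4 at both stages. Of 18 Sox genes 6 were kept, Sox4 was marked in ES alone, and Sox11 and Sox21, both factors of the neural lineage, in NPC alone. Sox1 is not named in the annotation and was not analysed here.

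Factors of mesoderm and endoderm were also mostly kept. Of 23 mesoderm and primitive streak genes 10 were marked at both stages, T, Eomes and Snai1 in ES alone, and Mixl1, Kdr and Cdx1 in NPC alone. T, or Brachyury, and Eomes are T-box factors of gastrulation, and the T-box list had 7 genes at both stages, these with Tbx15 and Tbx20 in ES alone, and Tbx3 in NPC alone. Tbx3, which also acts in pluripotent cells, had no ES promoter peak and 7 in NPC over 2366 bp. Gsc, a factor of the organiser, had 1 peak in ES and 6 in NPC, over 223 and 1935 bp. Foxa2, an endoderm and floor plate factor, had 1 and 3 peaks over 140 and 1685 bp. Of 43 forkhead genes 14 were kept, Foxd4, Foxi2, Foxj2 and Foxs1 were marked in ES alone, and Foxd3 and Foxi3 in NPC alone. GATA genes counted 4 at both stages, with Gata5 in ES alone.

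Pluripotency genes were marked in NPC more than in ES. None of 18 was marked at both stages. Dppa3 was marked in ES alone, with 1 peak, while Esrrb, Klf2, Prdm14 and Tbx3 were marked in NPC alone, against 4.17% of all genes marked in NPC. In wild type NPC 6 of the 18 were marked.

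Among signalling genes the ligands of the Wnt family were the most often marked. Of 19 Wnt genes 10 were marked at both stages, Wnt3, Wnt4, Wnt8b, Wnt9a and Wnt9b in ES alone, and none in NPC alone. Of 20 genes for BMP ligands and their antagonists 3 were kept, 6 were marked in ES alone and 2 in NPC alone. FGF ligands counted 2, 4 and 3 of 22. Dll1, a Notch ligand, had 4 ES promoter peaks and no NPC peak, and 4 other genes of the 18 Notch ligands and Hes and Hey factors were kept. Retinoic acid genes counted 2 at both stages, 2 in ES alone and none in NPC alone.

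The Nodal and SMAD2 pathway is the branch of TGF-β signalling that the study followed. Of its list of 24 genes, Inhbb, an activin subunit, was marked in NPC alone with 2 peaks. Nodal and its antagonists Lefty1 and Lefty2 had no peak within 2500 bp of a start site at either stage. H3K27me3 was present at 8 of the 24 in ES and at 9 in NPC. A gene without a peak was not called at this depth, which does not show that the mark was absent.

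Genes of neuronal function kept the mark in a share near that of all ES-marked genes (45.7% and 40.9%). Potassium channel genes counted 8 at both stages, 13 in ES alone and 11 in NPC alone, of 92. Neurotransmitter receptor genes counted 4, 6 and 6 of 90. Axon guidance genes counted 8, 6 and 10 of 71, so this list had 14 members in ES and 18 in NPC. Clustered protocadherins, adhesion proteins of neurons, counted 1, 0 and 2 of 24. H3K27me3 in NPC was found at more of each list, for example at 57 of the potassium channel and 47 of the neurotransmitter receptor genes.

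Imprinted genes, of which a single parental copy is active, counted 6 at both stages, 1 in ES alone and 4 in NPC alone, of 34. Igf2, a growth factor, had 5 promoter peaks in ES and 6 in NPC, and Dio3, an enzyme that inactivates thyroid hormone, had 1 and 7. Large gene families held few marked genes. Of 1087 olfactory receptor genes 4 were marked in ES alone and 2 in NPC alone, and of 361 zinc finger protein genes 3, 9 and 6 were marked at both stages, in ES alone and in NPC alone. Collagen genes counted 2, 4 and 3 of 43.

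Ribosomal protein genes, active in every cell, had 5 of 80 members marked in ES alone (Rpl8, Rplp0, Rplp1, Rps15 and Rpsa). None was marked at both stages, and Rpl38 was marked in NPC alone. These shares, 6.25% in ES and 1.25% in NPC, were near and below those of all genes, 5.96% and 4.17%. The wild type lists marked none of the 80 at either stage. No replication-dependent histone gene of 67 was marked in ES, and 2 were marked in NPC alone.

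The strongest peaks by score were chosen by rule and differed in kind between the classes. Among the kept ones were Pitx1, a homeobox factor of hindlimb and pituitary, with a fold over background of 7.08 in ES and 10.6 in NPC, together with Lmx1b, Pax7 and Stk32c. The others named were Gm10807, Gm10716, Gm10106 and Gm17535, which are predicted genes. Of these, Gm10716, Gm10106 and Gm17535 lie at the repeated start of chromosome 9, with low ES folds of 1.84, 1.71 and 1.71. Among the lost ones, Reg3b, an antibacterial lectin of the gut, had a fold of 21.4 in ES. A single lost peak over mitochondrial DNA (bases 5373 to 6886) had its centre within 2500 bp of the starts of mt-Atp6, mt-Atp8, mt-Co1, mt-Co2, mt-Co3 and mt-Nd2, and mitochondrial DNA carries no histones. Wild type NPC had 2 peaks on mitochondrial DNA and wild type ES had none. The last lost name was Gm10925. The gained ones included Tlx2, a homeobox factor of enteric neurons (fold 9.06), Fcgr3, an Fc receptor of immune cells (8.13), and Hc, a complement component (10.2). Etfa, of mitochondrial electron transfer (9.69), Nudc (5.75) and 4833424O15Rik (9.15) were also gained. Beside these were the predicted Gm10800 and Gm10801, the strongest gained by rank. The Gm10800 window shown above repeats part of its own sequence, and this place was not left out with the dense regions.

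The exon peaks among the strongest lost ones lay in genes that are known for abundant transcripts, several of them in gut epithelium. Reg3b had 3 ES peaks over 4 of its 6 exon blocks, and Car1, a carbonic anhydrase, had peaks over 3 of 7. B2m and H2-K1, of the MHC class I complex, had folds of 9.33 and 8.89, and peaks lay over 2 of 4 and 3 of 8 exon blocks. Zg16, a lectin of goblet cells, had a fold of 15.3, and Muc2, the mucin of the gut, 5.52. Of Reg3b, Zg16, Car1, B2m and H2-K1, only H2-K1 had an H2AK119ub1 peak over an exon in the NPC list (1 peak), and none had one in the wild type lists. Over all peaks the share that lay mostly in exons was not higher among the lost, at 12.5% of kept ES, 7.40% of lost and 17.1% of gained peaks. The source of the exon peaks was not tested.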

How the data were processed

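The peak lists of 8 of the 10 deposited lists were used, those of H2AK119ub1 and H3K27me3 in PCGF5-depleted ES and NPC, of H2AK119ub1 in wild type ES and NPC, and of Flag-PCGF5. Chromatin for histone ChIP was digested with MNase and crosslinked with formaldehyde. The authors trimmed reads with Trimmomatic and dropped those shorter than 36 bases, mapped the remainder with Bowtie2 on mm9, and after Picard had taken out duplicates they ran MACS2 2.1.0 on each library, as the study's methods and the submitters' processing notes give it. Replicates were not pooled. The lists as deposited hold a score for each peak, its fold ratio over background, and the −log10 p and −log10 q of the authors' caller. The score of every H2AK119ub1 peak was the integer part of 10 times the −log10 p. A spike-in of Drosophila chromatin in the protocol does not enter a peak list, and depth is unknown, so fold values were not compared between libraries and covered lengths move with depth and with the number of peaks called.

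Peaks were compared by an overlap of at least 1 bp. Start sites came from GENCODE M1 on NCBIM37 (22232 protein-coding names), and 3 listed genes (Sox1, Map2 and Tfcp2l1) are not named there. A promoter was the window within 2500 bp of a start site. CpG was counted in 500 bp at peak centres, and for comparison in windows spaced 100 kb apart over the genome and at start sites. The members and all 34 gene lists were chosen with earlier results of these data known. Genes named were the 8 strongest kept, lost and gained by score percentile within their lists (for kept, the lower of both percentiles), the 6 regions with the most covered bases at each stage, marked members of the gene lists, and the genes the study examined (Nodal, Lefty1, Lefty2, Pcgf5, Sox1, Nes, Cdh2 and Pou3f2). Regions further down the ES order, to rank 12, were also described, with no such extension for NPC. Other genes, and the dense regions and exon peaks, were picked after their values were seen. Sequences were the windows at the first named peaks, left out where they held untranslated regions, and those of Lmx1b, Neurog3 and Hoxc12.

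With 1 library per group there was no test. Alternatives were a larger overlap, stronger or equally many peaks, a stricter q-value, merged peaks, other promoter rules and whole peaks for CpG. The code was tested on simulated peaks, and bedtools 2.31.1 counted the same 1356 and 1425 overlapping peaks. Python 3.11.15, pandas 2.3.3, numpy 2.4.6, scipy 1.17.1, pysam 0.24.0 and matplotlib 3.10.9 were used.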

Additional observations from a re-analysis of the deposited data

Results flagged for a closer look

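At several loci and gene lists the mark moved in opposite directions in PCGF5-depleted and wild type cells between ES and NPC. With 1 library per group none of these differences was tested, and the depth of the libraries is unknown. At the Hox clusters the depleted cells had fewer covered bases in NPC and the wild type cells more. The change from ES to NPC was -15.6 kb at Hoxb (49.4 kb in wild type), -6.55 kb at Hoxa (62.2 kb), -8.96 kb at Hoxd (46.4 kb) and -5.84 kb at Hoxc (71.8 kb). Over the whole lists H2AK119ub1 covered 2.09 Mb in ES and 1.12 Mb in NPC of the depleted cells, and 2.49 and 2.33 Mb in wild type cells.

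At both dense, repeated regions of chromosome 6 that lie nearest to Ezh2 and Pdia4, the change was 1.56 and 1.90 kb in the depleted cells and -9.05 and -11.2 kb in wild type cells. On chromosome Y it was 26 peaks (9 in ES and 35 in NPC) against -3 in wild type, and the dense region there changed by 4.68 kb against -0.48 kb.

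Counts of marked genes also moved in opposite directions in 11 lists. Depleted cells marked fewer genes in NPC than in ES for T-box factors (-3, against 6 in wild type), forkhead factors (-2, against 1), retinoic acid genes (-2, against 1), Pax factors (-1, against 1), FGF ligands (-1, against 2) and PRC1 and PRC2 genes (-1, against 1). They marked more for axon guidance genes (4, against -7), imprinted genes (3, against -3), protocadherins (2, against -2), Sox factors (1, against -4) and neural progenitor genes (1, against -1). Over all genes the depleted cells marked 1324 in ES and 928 in NPC and the wild type cells 1488 and 1108, so a lower count in NPC is also what all genes show. Most of the changes in the lists were of 3 genes or fewer.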

How the results depend on the processing

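Of 120 values recomputed under alternatives, 60 were labelled unchanged and 60 moved. The share of ES peaks kept ran from 12.04% to 25.05% and that of NPC peaks gained from 62.1% to 72.6%. For shares and CpG medians, unchanged meant within the error of the reported value. Counts of genes have no such error and were judged by a looser rule. For example, 392 genes at both stages with equally many peaks, against 542, were labelled unchanged. Marking of a gene uses no shared bases, so the 50% overlap could not change these counts. The cause of the differences was not tested. Lost peaks had the lowest promoter share, and kept peaks the highest share with H3K27me3 in NPC, under all alternatives run, but the order of kept and gained peaks in promoter share depended on the choice.

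Where 50% or more of a peak had to be covered, 12.04% of ES peaks were kept and 71.5% of NPC peaks gained. Promoters then held 39.4% of kept, 30.1% of lost and 43.5% of gained peaks, and H3K27me3 covered 50.8% (kept), 17.2% (lost) and 21.0% (gained) in ES and 87.5% of kept in NPC. With the higher-scoring 50% of each list, 16.9% were kept, 67.0% gained, 34.1% of kept peaks lay at promoters, H3K27me3 in ES covered 64.7%, 26.96% and 29.8% of kept, lost and gained peaks and in NPC 42.3% of lost and 69.0% of gained, and 281 genes were marked at both stages, 468 in ES alone and 237 in NPC alone. With the same number of peaks in both lists, 25.05% were kept and 72.6% gained, 37.9% of kept peaks lay at promoters, H3K27me3 in ES covered 59.8%, 23.9% and 29.1% and in NPC 37.5% of lost and 68.5% of gained, and 399 genes were marked in ES alone.

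With q-values of at most 0.01, 64.5% were gained, and H3K27me3 covered 22.6% of lost peaks in ES and 37.7% in NPC. With peaks merged within 1000 bp, 15.5% were kept and 66.2% gained, promoters held 46.7%, 23.9% and 35.8%, and H3K27me3 covered 18.4% of lost and 22.7% of gained peaks in ES and 86.7%, 26.8% and 56.1% of kept, lost and gained in NPC. A promoter window of 1000 bp held 22.7%, 12.8% and 24.5%, with 320 genes at both stages and 461 in ES alone. Over whole peaks the CpG median of lost peaks was 0.97.

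A pair of alternatives was added after seeing the data. Without the dense regions, chromosomes M and Y and the start of chromosome 9, 16.1% were kept and 67.1% gained, 51.0% of kept peaks lay at promoters and 49.9% had H3K27me3 in ES. Without peaks that lay mostly in exons, 17.7% were kept, promoters held 37.6%, 26.7% and 35.4%, H3K27me3 covered 22.3% of gained peaks in ES and 60.3% in NPC, the CpG median of gained peaks was 1.4 and genes outside the transcription factor lists kept 32.4%. Transcription factor genes kept 81.5% without the exon peaks and 85.6% without the dense regions.

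No paired analysis was possible because each group was 1 library and the labels give no replicate numbers that stages share.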

Other observations

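Genes of the Polycomb complexes themselves carried the mark in some cases. Cbx8, a reader of H3K27me3, was marked at both stages, Kdm2b, a CpG-binding subunit of PRC1, and Cbx2 in ES alone, and Aebp2, a PRC2 cofactor, in NPC alone.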
